A study of Homo sapiens with 16 samples.

Results

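A pair of testicular germ cell tumour lines was compared at baseline: NT2/D1, the D1 clone of the NTERA-2 line, a model of embryonal carcinoma (EC), and TCam-2, a model of seminoma (SEM). The libraries were chosen by their labels alone, as those of cells that had received a scrambled mimic: 4 of NT2/D1 and 4 of TCam-2, so 8 of the 16 libraries of the series. Every cell sample, the controls included, had been transfected with a double-stranded mimic by the Transit-IT X2 reagent and was collected after 3 days. The other 8 libraries, with a MIR9-2-5p mimic, entered only the comparison of the control difference with that of treated cells. Each tumour type was represented by 1 line. NT2/D1 was kept in DMEM and TCam-2 in RPMI (with added non-essential amino acids and pyruvate per the labels, while the study's methods name neither), so line and medium cannot be told apart in any difference given here. In bulk RNA, fewer cells with a transcript and less transcript per cell cannot be told apart either.

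EC and SEM arise from the same precursor, an arrested primordial germ cell (PGC) or gonocyte. SEM cells keep the PGC programme, built on SOX17, TFAP2C and PRDM1 beside the pluripotency factors OCT4 (gene POU5F1) and NANOG. EC cells resemble the pluripotent epiblast, use SOX2 as the partner of OCT4, carry high DNA methylation and can differentiate into all germ layers. The question of the comparison is which genes differ between these 2 states when no active microRNA has been added.

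The control libraries held 15801394 to 21488866 counts. Library profiles of 1 line correlated at 0.99 to 0.997 (Pearson, log2(CPM + 1) over 17740 genes) and those of different lines at 0.82 to 0.833. The NT2/D1 replicates fell into pairs by base composition: the deviation of each gene from the group mean correlated with the GC content of its transcript at 0.53 and 0.39 (Spearman) in replicates 1 and 4 and at -0.58 and -0.31 in replicates 2 and 3, against -0.17 to 0.15 in TCam-2. Its part in single genes was not tested, and counts without either pair are given among the effects of processing. SOX2 and SOX17, the factors that define the 2 lines, followed the labels in all 8 libraries.

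Of 17740 genes tested, 7052 were higher in NT2/D1 (39.8% of those tested) and 6993 were higher in TCam-2 (39.4%) at an adjusted p under 0.05, so 79.2% were called in either direction (edgeR's quasi-likelihood test, Benjamini-Hochberg adjustment). Because so many small differences were called, a second rule tested each gene against a fold change of 2 rather than of 1 (edgeR's glmTreat, adjusted p under 0.05): 3319 genes passed it with higher counts in NT2/D1 (18.7%) and 3014 with higher counts in TCam-2 (17%), together 6333 genes (35.7%). These percentages are the background against which the gene groups are to be read, and "over 2-fold" refers to this second rule throughout, so a gene slightly beyond 2-fold can fail it. The 4 values of one line lay wholly above those of the other for 13049 genes (73.6%). The median log2 fold change over all tested genes, NT2/D1 over TCam-2, was 0.01. A positive log2 fold change always means a higher level in NT2/D1, and levels are counts per 1000000 counts (CPM), as mean ± SD of 4 libraries unless each library is given. Where 2 means are joined by "against", NT2/D1 stands first and TCam-2 second.

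Among 18 EC markers, 13 were over 2-fold higher in NT2/D1 and 2 in TCam-2, with a median log2 fold change of 2.67 against 0.01 for all genes. SOX2, the HMG-box factor that pairs with OCT4, was at 368, 329, 349 and 389.7 CPM in the 4 NT2/D1 libraries and at 1.49, 1.72, 1.23 and 1.59 CPM in those of TCam-2. The lowest NT2/D1 library was thus more than 100 times the highest TCam-2 library, and the log2 fold change was 7.89 (SE 0.11, adjusted p = 1.29e-18 by edgeR). GDF3, a TGF-beta family ligand of pluripotent cells encoded on 12p (the short arm of chromosome 12), was at 341, 359, 363 and 375 CPM in NT2/D1 and 23.4, 21.3, 21.5 and 21.6 CPM in TCam-2. DNMT3B, the de novo DNA methyltransferase of the epiblast, was at 905, 877, 873 and 866 CPM in NT2/D1 and 120.0, 129, 135 and 135 CPM in TCam-2. For each of these genes the groups were far from overlapping, while TCam-2 kept a measurable level of all 3.

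The other EC markers followed with smaller or larger gaps. LIN28A, which blocks the maturation of let-7, was at 1831 ± 86.1 against 524 ± 23.6 CPM (log2 fold change 1.81). CD24, a cell surface sialoglycoprotein, was at 982 ± 47 against 96.2 ± 2.59 CPM. ESRG, a long noncoding RNA (lncRNA) read from a HERV-H element, was at 1642 ± 86.5 against 158 ± 10.3 CPM. OTX2, a homeobox factor that marks the anterior or primed epiblast, was at 83.2 ± 3.07 against 16.1 ± 1.35 CPM. TNFRSF8 encodes CD30, the antigen used in pathology to recognise EC, and was at 99.5, 74.3, 85.6 and 96.1 CPM in NT2/D1 and 7.81, 9.15, 9.14 and 8.76 CPM in TCam-2. FGF4, the growth factor activated by OCT4 and SOX2, was at 44.8 ± 2.66 against 0.944 ± 0.344 CPM (log2 fold change 5.56). ZFP42, known as REX1, was at 13.4 ± 0.863 against 0.102 ± 0.126 CPM. FOXD3, a repressor of differentiation, was at 29.8, 16.8, 20.1 and 29.2 CPM in NT2/D1, where the higher pair were replicates 1 and 4, and at 7.1 ± 0.942 CPM in TCam-2. PRDM14, a regulator of both epiblast and PGC fate, differed by 1.11 on the log2 scale and TDGF1, the Nodal co-receptor CRIPTO, by 0.24, both called but not over 2-fold.

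DNMT3L, NODAL and LEFTY1 did not follow the EC list. DNMT3L, the catalytically inactive partner of the de novo methyltransferases that is active in fetal germ cells, was at 0.055, 0.237, 0.0445 and 0 CPM in NT2/D1 and at 284, 276, 264 and 300.1 CPM in TCam-2, or -11.69 on the log2 scale (SE 0.19, adjusted p = 2.32e-18 by edgeR). It was thus nearly undetected in the EC line and among the genes most in excess in the SEM line. NODAL, the ligand that maintains primed pluripotency, was low in both and higher in TCam-2, at 0.407 ± 0.3 against 2.29 ± 0.332 CPM. LEFTY1, an inhibitor of Nodal, was not called (log2 fold change 0.60, edgeR adjusted p = 0.206), and its relative LEFTY2 was at 2.08 ± 0.155 against 0.333 ± 0.138 CPM.

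**Figure D1:**
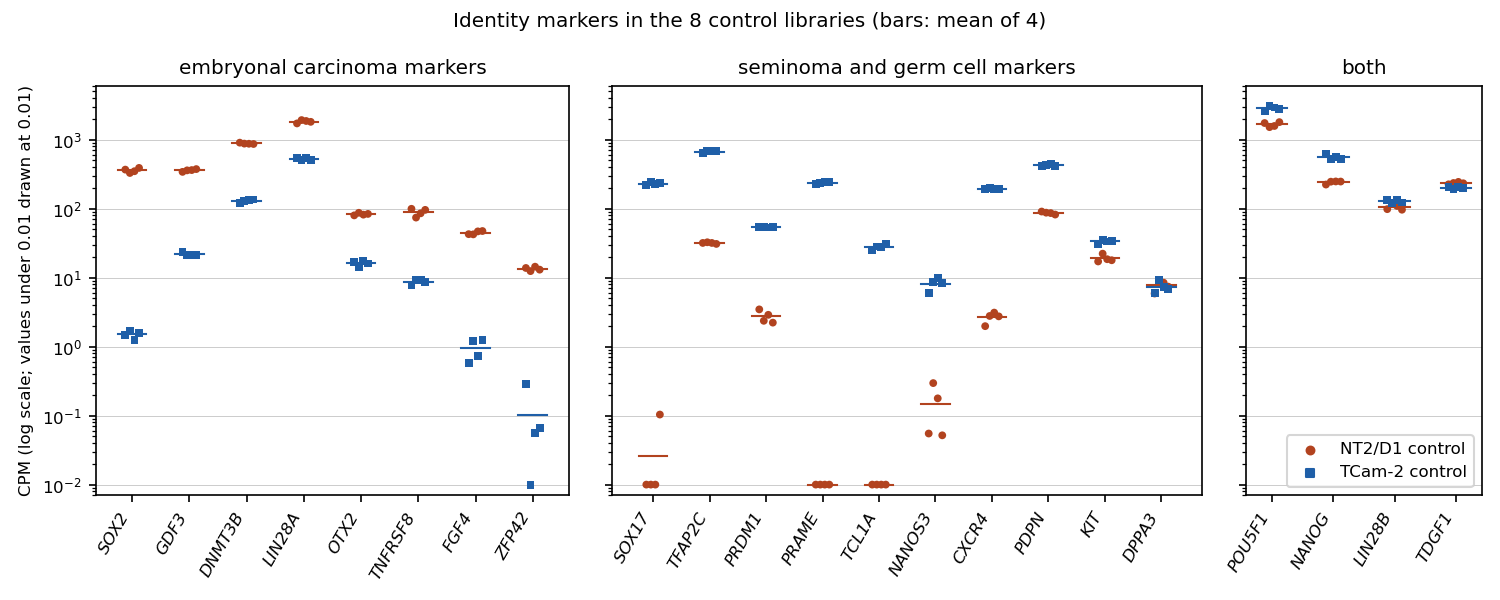
Level of 22 identity genes in each of the 8 control libraries, in CPM on a log axis, with circles for NT2/D1, squares for TCam-2 and bars for the mean of 4; values under 0.01 are drawn at 0.01. SOX2 was at 329 CPM or more in NT2/D1 and at 1.72 CPM or less in TCam-2, SOX17 was at 0.104 CPM or less in NT2/D1 and at 219 CPM or more in TCam-2, and DPPA3 overlapped.

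Of 26 SEM and PGC markers, 24 passed the filter on low counts (DND1 and XIRP1 did not). None of the 24 was over 2-fold higher in NT2/D1 and 17 were over 2-fold higher in TCam-2, with a median log2 fold change of -3.72. The median was -3.10 without the filter and -4.25 with a mean count of at least 100. SOX17, the factor that specifies human PGCs, was at 0, 0, 0 and 0.104 CPM in NT2/D1 and at 219, 243, 229 and 234 CPM in TCam-2. This is 2 counts in all 4 NT2/D1 libraries against 16244 in TCam-2, a ratio of 8899 (95% counting interval 2463 to 73491, which covers counting error only). TFAP2C, its AP-2 partner, was at 31.9, 32.6, 31.9 and 30.8 CPM in NT2/D1 and at 649, 680.3, 687 and 677 CPM in TCam-2 (log2 fold change -4.41, SE 0.07). PRDM1, known as BLIMP1, which represses somatic genes in PGCs, was at 3.47, 2.37, 2.89 and 2.23 CPM in NT2/D1 and 54.7, 54.8, 53.4 and 54.1 CPM in TCam-2. All 3 members of the PGC core were higher in every TCam-2 library, and of these SOX17 was the one near 0 in NT2/D1.

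PRAME, a cancer-testis antigen and repressor of retinoic acid signalling, had no count in any NT2/D1 library and was at 231, 235, 247 and 241 CPM in TCam-2, at least 6101-fold higher when set against a floor of 3 counts over the 4 libraries, as all such bounds are here. TCL1A, an AKT coactivator of lymphoid and germ cells, also had none in NT2/D1 and was at 28.2 ± 2.42 CPM in TCam-2 (at least 719-fold). Its neighbour TCL1B was at 0.0709 ± 0.084 against 21.8 ± 4.23 CPM. CXCR4, the receptor that guides migrating PGCs, was at 2.66 ± 0.48 against 193 ± 2.86 CPM. NANOS3, an RNA-binding protein needed for PGC survival, was at 0.145 ± 0.116 against 8.2 ± 1.61 CPM, and CD38, an ectoenzyme of the germ cell surface, at 0.465 ± 0.15 against 38.2 ± 3.22 CPM. SOX15, another SOX factor of SEM, was at 4.05 ± 0.843 against 109 ± 7.79 CPM, TFCP2L1, a factor of the naive state, at 7.45 ± 0.799 against 334 ± 17.3 CPM, and KLF4 at 17.9 ± 2.12 against 158 ± 4.47 CPM. PDPN, the podoplanin recognised by the D2-40 antibody, was at 86.7 ± 3.59 against 425 ± 11.3 CPM. ALPL, tissue non-specific alkaline phosphatase, was over 2-fold higher in TCam-2, at 95.5 ± 10.8 against 230.2 ± 5.25 CPM, whereas the placental form ALPP was low and higher in NT2/D1, at 1.88 ± 0.228 against 0.794 ± 0.328 CPM. The epithelial factors ELF3 (-2.35 on the log2 scale) and TFAP2A (-4.33) and the placental-like phosphatase ALPG (-1.32) completed the 17.

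Several markers that pathologists or developmental biologists use for SEM and PGCs differed little. KIT, the stem cell factor receptor of SEM, was at 17.2, 22.3, 18.5 and 17.9 CPM in NT2/D1 and at 31, 35.1, 33.4 and 34.4 CPM in TCam-2. The groups did not overlap, but the log2 fold change of -0.82 (SE 0.09) was not over 2-fold. DPPA3, known as STELLA, was at 5.89, 9.24, 8.45 and 7.41 CPM in NT2/D1 and 6.03, 9.3, 7.4 and 6.83 CPM in TCam-2, with overlapping groups and an edgeR adjusted p of 0.732. MYBL1, a meiotic transcription factor, was at 13 ± 2.13 against 13.2 ± 1.41 CPM and was not called either (edgeR adjusted p = 0.856). ITGA6, a stem cell integrin, was higher in TCam-2 by less than 2-fold (-0.66), and SPRY1, a feedback inhibitor of FGF signalling (0.39), and the kinase CDK20 (0.89) were higher in NT2/D1.

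POU5F1 and NANOG, the pluripotency factors that EC and SEM share, were present in both lines and higher in the SEM line. POU5F1 was at 1743, 1520.0, 1579.9 and 1797 CPM in NT2/D1 and at 2564, 3043, 2918 and 2805 CPM in TCam-2, so that the groups did not overlap, and differed by -0.77 on the log2 scale (SE 0.07, adjusted p = 2.21e-08 by edgeR). NANOG was at 224, 246, 248 and 247 CPM in NT2/D1 and at 623, 520.0, 554 and 532 CPM in TCam-2 (log2 fold change -1.21, SE 0.07), which was over 2-fold. POU5F1 overlaps TCF19 on the other strand, and the strand setting of the counting is not given. LIN28B, the paralogue of LIN28A, was higher in TCam-2 by less than 2-fold, at 106 ± 10.3 against 129 ± 7.1 CPM, and was not called without NT2/D1 replicates 1 and 4 (log2 fold change -0.14, edgeR adjusted p = 0.0918). POU5F1 has processed pseudogenes and NANOG a near copy, so reads that the counting could not place uniquely may be missing from either. Over the 27 shared pluripotency genes, 11 were over 2-fold higher in NT2/D1 and 5 in TCam-2. The former included USP44, a deubiquitinase of histone H2B, at 254 ± 29.2 against 2.3 ± 0.623 CPM, and SALL1 at 184 ± 8.22 against 5.82 ± 0.846 CPM. POLR3G, a subunit of RNA polymerase III, was at 129 ± 16.6 against 5.4 ± 0.294 CPM and VRTN at 96.2 ± 6.95 against 13.2 ± 1.8 CPM. The latter included the factors TBX3 (2.36 ± 0.736 against 86 ± 5.18 CPM) and KLF5 (3.33 ± 0.607 against 56.9 ± 2.07 CPM), DPPA2 (3.64 ± 1.54 against 37.1 ± 3.27 CPM) and UTF1 (23 ± 11.5 against 156 ± 13.7 CPM).

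The NANOG promoter is shown because it carries the element at which OCT4 binds with SOX2, upstream of a gene that was higher in the line nearly without SOX2. The sequence is from RefSeq, GRCh38.p14, plus strand, chr12:7789152-7789451, 250 bases before the transcription start to 50 from it, with the match to the composite OCT-SOX motif in capitals.
NANOG: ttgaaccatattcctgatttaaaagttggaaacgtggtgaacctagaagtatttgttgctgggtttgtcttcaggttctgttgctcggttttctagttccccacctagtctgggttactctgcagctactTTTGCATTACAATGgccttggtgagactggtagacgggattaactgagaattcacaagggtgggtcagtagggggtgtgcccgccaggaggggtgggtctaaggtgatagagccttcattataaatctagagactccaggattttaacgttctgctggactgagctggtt
The motif searched on both strands was the SOX element CATTGT, 1 base of any kind and the OCT element ATGCAAA. It matched the minus strand, with its leftmost base 120 bases before the start, and was found in 3 of 35116 promoters of this length (0.00854%). The others were NRARP, a Notch feedback gene named here for this match, at 26.8 ± 6.62 against 10.5 ± 1.16 CPM, and 1 uncharacterised locus. The form without the base between the elements, which OCT4 binds with SOX17 in mouse endoderm, was found in 0 of 35116. The shorter octamer ATGCAAAT was found in 623 (1.77%). Exact matches to motifs as long as these are rare in such windows, so no conclusion is drawn from the 0. These are matches of letters in a window, not measured binding.

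Genes of the primed and of the naive state of pluripotency differed in opposite directions. Of 17 tested primed genes, 16 were over 2-fold higher in NT2/D1 and none in TCam-2 (median log2 fold change 3.97), and of 16 tested naive genes 3 were over 2-fold higher in NT2/D1 and 12 in TCam-2 (median -3.73). Some of these genes also stand in the EC and SEM lists. Of 23 listed naive genes, 7 did not pass the filter. The naive median was -3.10 without the filter and -4.20 with a mean count of at least 100. PTPRZ1, a receptor tyrosine phosphatase of neural progenitors and pluripotent cells, was at 256, 328, 285 and 236 CPM in NT2/D1 and had 2 counts in all 4 TCam-2 libraries, a ratio of 9662 (counting interval 2674 to 79785). SFRP2, a secreted Wnt antagonist, was at 509, 410.3, 463 and 524 CPM in NT2/D1 and 0.23, 0.101, 0.336 and 0.0663 CPM in TCam-2. Both were thus abundant in every NT2/D1 library and close to undetected in TCam-2. ZIC2, a zinc finger factor of the primed epiblast, was at 169 ± 16.5 against 1.68 ± 0.224 CPM. On the naive side, SUSD2, a surface protein used to sort naive cells, was at 6.88, 2.49, 4.05 and 2.85 CPM in NT2/D1 and 622, 668, 647 and 639 CPM in TCam-2. NLRP7, an oocyte gene whose loss causes imprinting defects, was at 0.44 ± 0.157 against 252 ± 9.96 CPM. The 3 naive genes that were higher in NT2/D1 were FGF4, ZFP42 and DPPA4, a chromatin protein at 855 ± 56.9 against 245 ± 8.14 CPM. KLF17 and DPPA5, which define the naive state of human embryos, did not pass the filter, with mean levels under 1 CPM in both lines.

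**Figure D2:**
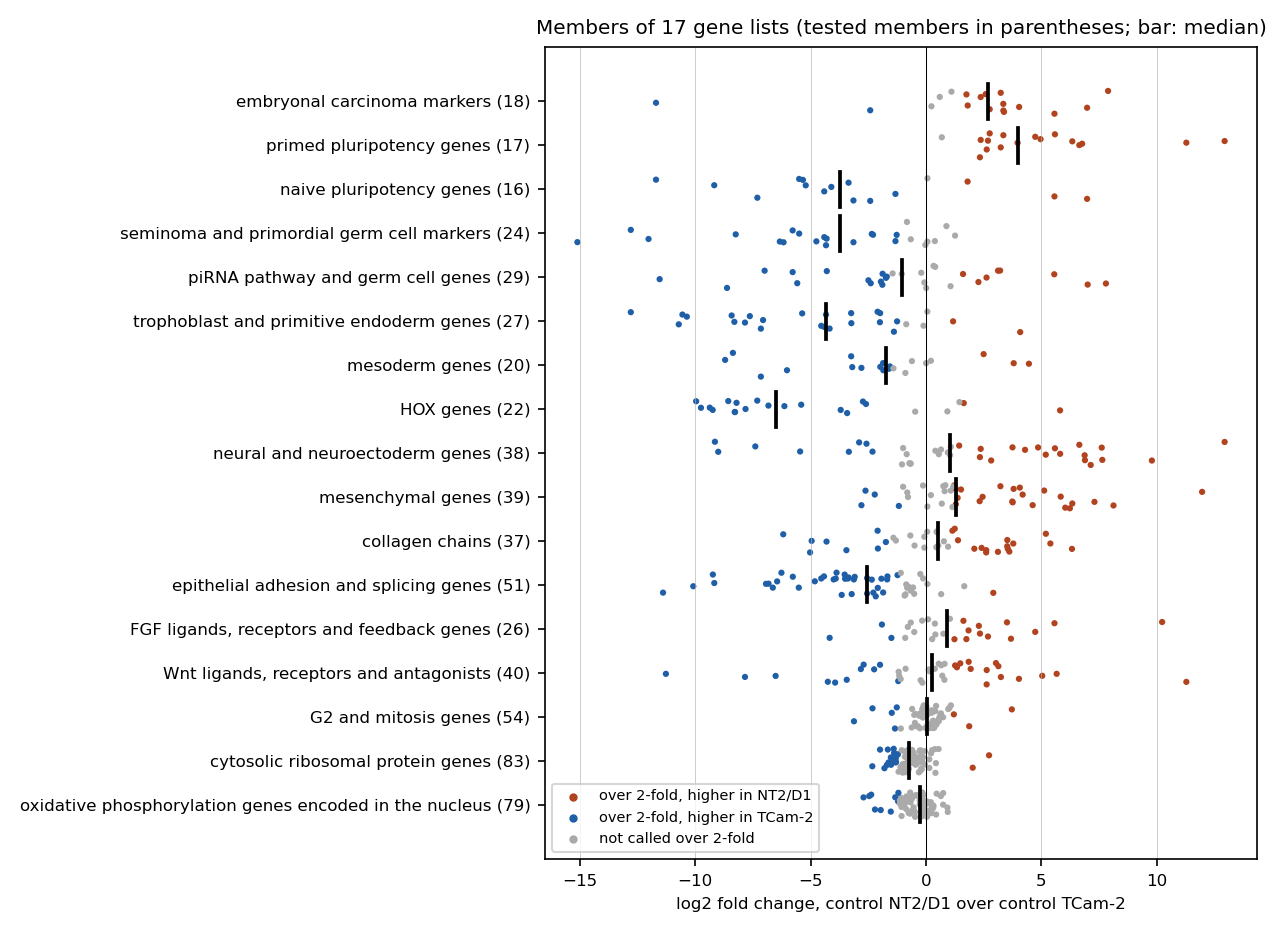
Log2 fold change, control NT2/D1 over control TCam-2, of every tested member of 17 gene lists, with the number tested in parentheses and the median as a black bar; coloured points passed the over 2-fold rule. The primed list lay at a median of 3.97 and the naive list at -3.73, the epithelial list at -2.55 and the mesenchymal list at 1.30, whereas the medians of the mitosis list (0.06) and the oxidative phosphorylation list (-0.27) were nearer to 0.

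The transcripts linked to HERV-H elements in pluripotent cells, lncRNAs and some protein-coding genes, did not all go one way. Of 11 tested, 6 were over 2-fold higher in NT2/D1 and 3 in TCam-2. LINC-ROR, a reprogramming lncRNA, was at 8.97, 10.01, 8.85 and 8.03 CPM in NT2/D1 and 0.172, 0.101, 0.056 and 0 CPM in TCam-2. HHLA1 was at 131 ± 9.03 against 1.91 ± 0.213 CPM and LINC00458 at 11.7 ± 1.31 against 0.509 ± 0.314 CPM. LINC01356 (20.6 ± 1.05 against 114 ± 6.71 CPM) and ABHD12B (11.3 ± 1.01 against 55.7 ± 1.83 CPM) were higher in TCam-2. HHLA1 and ABHD12B are annotated as protein-coding. Among all abundant lncRNAs, the 5 with the largest excess in NT2/D1 were HPAT5, which had no count in TCam-2 and was at 53 ± 3.93 CPM in NT2/D1 (at least 1237-fold), MIAT at 54.6 ± 5.4 against 2.27 ± 0.453 CPM, and the unnamed ENSG00000260834 (4.97), ENSG00000257474 (4.78) and ENSG00000254277 (3.57). The 5 with the largest excess in TCam-2 were LINC02387 (-5.36), MIR205HG, the imprinted H19, the small nucleolar RNA host SNHG5 at 26.7 ± 2.77 against 296 ± 44.2 CPM, and LINC02367 (-2.85).

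Of the protein-coding genes with a mean of at least 500 counts, the 10 with the largest excess in NT2/D1 all had at most 2 counts in the 4 TCam-2 libraries together. Beside PTPRZ1 they were HDHD5 (at least 2008-fold), TMCO1, a calcium channel of the endoplasmic reticulum (at least 1918-fold), the zinc finger genes ZNF208 (at least 1799-fold) and ZNF90, GLIPR1L1 (at least 1680.2-fold), OCIAD2 (at least 1388-fold), CRABP1 (at least 1362-fold), the bromodomain gene CECR2 and TMEM178B. TMCO1, which overlaps UCK2 on the other strand, was at 74.4, 83.5, 81.2 and 89.1 CPM in NT2/D1 and 0 in each TCam-2 library. Among the 10 with the largest excess in TCam-2 were PRAME, SOX17 and DNMT3L, given above, GSTA3, a glutathione transferase of steroid synthesis (at least 4693-fold), EID1, an inhibitor of the acetyltransferase p300 (at least 2881-fold), the serine protease TMPRSS4 (at least 1673-fold), the antigen XAGE2, ERVW-1 and PKP3. EID1 was at 103, 117, 118 and 111 CPM in TCam-2 and had 0 counts in all 8 NT2/D1 libraries, mimic libraries included. GSTA3 belongs to a family of near copies and may share reads with them.

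Epithelial cells hold each other through E-cadherin, claudins and desmosomes, while ZEB1 and ZEB2 repress these genes in mesenchymal cells and are themselves targets of the miR-200 family and miR-205. Of 51 tested epithelial genes, 1 was over 2-fold higher in NT2/D1 and 36 in TCam-2 (median log2 fold change -2.55), and of 39 mesenchymal genes 22 were over 2-fold higher in NT2/D1 and 4 in TCam-2 (median 1.30). ZEB2 was at 27.8, 28, 24.9 and 27.6 CPM in NT2/D1 and had no count in TCam-2 (at least 630.0-fold). ZEB1 was at 13.6, 17.2, 14.3 and 10.2 CPM in NT2/D1 and at 0, 0.0506, 0 and 0.133 CPM in TCam-2, which is 3 counts in all. The groups were separate for both, with TCam-2 at or near 0. CDH11, a cadherin of mesenchyme, was at 32.5 ± 1.97 against 0.205 ± 0.0927 CPM, and THY1, a surface protein of fibroblasts and pluripotent cells, at 363 ± 15.8 against 4.48 ± 0.997 CPM.

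The desmosomal plakophilin PKP3 was at 0.22, 0.296, 0.178 and 0.104 CPM in NT2/D1 and 204, 233, 208 and 228 CPM in TCam-2, without overlap. The claudin CLDN7 was at 1.01 ± 0.763 against 122 ± 15.3 CPM. OVOL2, a repressor of ZEB1, was at 19.7 ± 1.55 CPM in TCam-2 against 2 counts in the control NT2/D1 libraries together. Chosen after their values were seen, CDH1, which encodes E-cadherin, was at 16.8, 13.2, 15.5 and 15.6 CPM in NT2/D1 and 435, 432, 428 and 426 CPM in TCam-2. Chosen likewise, EPCAM was at 105 ± 4.34 against 1094 ± 30.9 CPM and ESRP1, the regulator of epithelial splicing, at 18.4 ± 1.72 against 294 ± 5.94 CPM. CLDN10 was the epithelial gene named by the rule that was higher in NT2/D1, at 13.1 ± 1.54 against 8.3 ± 1.49 CPM, without being over 2-fold. The division was not complete. TWIST1, a mesenchymal factor, was higher in TCam-2, at 7.11 ± 1.86 against 49.7 ± 5.44 CPM, as were LUM (-2.62), MYL9 (-2.22) and TPM1 (-1.17), and of genes chosen after their values were seen VIM (0.69) and CDH2 (-0.99) differed by less than 2-fold.

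**Figure D3:**
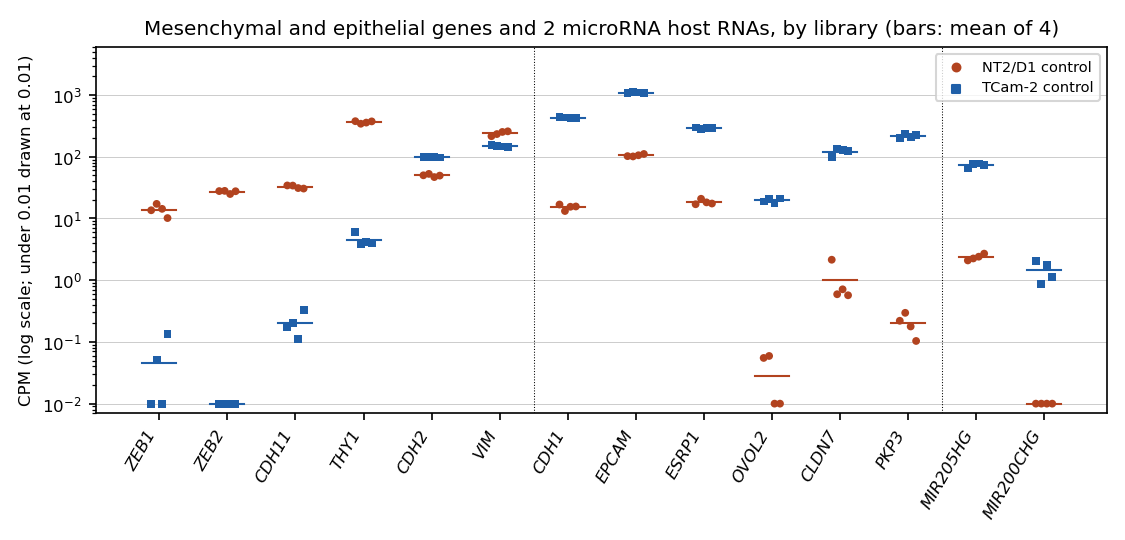
CPM on a log axis in each control library for 6 mesenchymal genes, 6 epithelial genes and 2 microRNA host RNAs, with circles for NT2/D1, squares for TCam-2, bars for the mean of 4 and values under 0.01 drawn at 0.01. ZEB2 had no count in TCam-2, CDH1 was at 16.8 CPM or less in NT2/D1 and at 426 CPM or more in TCam-2, and MIR200CHG had no count in NT2/D1.

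The host RNAs of the microRNAs that target ZEB1 and ZEB2 went with the epithelial genes. MIR205HG was at 2.09, 2.25, 2.4 and 2.69 CPM in NT2/D1 and 65.9, 77.1, 78 and 74.6 CPM in TCam-2 (log2 fold change -4.96, SE 0.11). MIR200CHG, host of miR-200c and miR-141 on 12p, was low, at 0 counts in NT2/D1 and 2.07, 0.859, 1.74 and 1.13 CPM in TCam-2, or 101 counts (at least 36.9-fold). Mature microRNAs were not measured in these libraries. Of the 32 tested genes whose symbols name a microRNA host, 10 were called higher in NT2/D1 and 15 higher in TCam-2, against backgrounds of 39.8% and 39.4%. The hosts named here other than MIR205HG, MIR17HG and MIR9-1HG were chosen after their values were seen. MIR17HG, host of the oncogenic miR-17-92 cluster, was at 24.8, 33.4, 30.03 and 28.8 CPM in NT2/D1 and 5.39, 5.97, 6.17 and 5.84 CPM in TCam-2. Of the hosts of miR-9, the microRNA of the mimic, MIR9-1HG was at 8.7 ± 1.32 against 19 ± 1.1 CPM, called but not over 2-fold, and MIR9-3HG was low, at 0.381 ± 0.0727 against 3.04 ± 0.409 CPM. The set was picked by symbol and holds no host of MIR9-2, the locus the study examined, so that host is not covered here. The mature sequences from RefSeq (GRCh38.p14, bases 2 to 8, the seed, in capitals) are given for the hosts described, since targets are recognised through the seed. The first 3 belong to hosts higher in TCam-2, the next 5 to the cluster higher in NT2/D1, and the last to the mimic.
hsa-miR-205-5p: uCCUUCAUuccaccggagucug
hsa-miR-200c-3p: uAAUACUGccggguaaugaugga
hsa-miR-141-3p: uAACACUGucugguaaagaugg
hsa-miR-17-5p: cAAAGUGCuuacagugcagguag
hsa-miR-20a-5p: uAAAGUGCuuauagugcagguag
hsa-miR-18a-5p: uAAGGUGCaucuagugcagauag
hsa-miR-19a-3p: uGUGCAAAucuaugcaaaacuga
hsa-miR-92a-3p: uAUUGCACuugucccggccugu
hsa-miR-9-5p: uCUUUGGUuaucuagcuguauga
miR-17-5p and miR-20a-5p share the seed AAAGUGC, and no other pair of the sequences shown shares one. In the longest annotated 3' untranslated region of ZEB2 (5373 bases), the 8-base match to miR-200c (CAGTATTA, searched on the sense strand) occurred 4 times and that to miR-141 (CAGTGTTA) 4 times. In that of ZEB1 (6068 bases) they occurred 3 and 2 times. Of 14352 tested protein-coding genes, 5.8% held at least 1 match to miR-200c and 6.19% to miR-141, and 2 genes held 4 or more to miR-200c. These shares take no account of the length of the region, and longer regions can hold more matches. The match to miR-205 (ATGAAGGA) occurred 2 times in ZEB1 and 0 times in ZEB2, against 7.06% of genes with at least 1. These matches describe the sequences and were not tested as sites.

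Collagens and integrins showed different members in the 2 lines rather than one direction. Of 37 collagen chains, 16 were over 2-fold higher in NT2/D1 and 8 in TCam-2. COL1A1, the first chain of type I collagen, was at 126 ± 20.5 against 10.3 ± 0.461 CPM, whereas COL1A2, the other chain of the same fibre, was at 19.3 ± 2.11 against 383 ± 8.04 CPM. The 2 chains thus differed in opposite directions. COL3A1 (1.53 ± 0.216 against 47.7 ± 2.9 CPM), the hemidesmosomal COL17A1 (2.98 ± 0.426 against 96.9 ± 2.61 CPM) and COL23A1 (6.82 ± 1.81 against 497 ± 28.7 CPM) were higher in TCam-2. COL11A1 (29.2 ± 0.8 against 2.1 ± 0.441 CPM) was higher in NT2/D1. Of 31 tested integrins and laminins, 7 were over 2-fold higher in NT2/D1, among them the laminin receptor ITGA7 (109 ± 8.63 against 5.69 ± 0.898 CPM), and 9 in TCam-2. ITGB4 of hemidesmosomes (0.503 ± 0.22 against 40.2 ± 2.9 CPM) and LAMA4 (1.16 ± 0.301 against 57.4 ± 1.49 CPM) were among the latter. Of 32 surface antigens of germ cell tumours, 10 were over 2-fold higher in NT2/D1 and 14 in TCam-2. They included BST2 (123 ± 9.68 against 1.83 ± 0.309 CPM), CD44 (16.1 ± 0.949 against 0.451 ± 0.291 CPM) and NCAM1 (9.67 ± 0.512 against 0.0393 ± 0.049 CPM) on the NT2/D1 side. Of 30 genes activated by YAP and TEAD, 6 and 7 were over 2-fold higher, among them AXL in NT2/D1 (24.9 ± 1.37 against 0.44 ± 0.166 CPM) and IGFBP3 in TCam-2 (19.4 ± 1.83 against 80.4 ± 5.44 CPM).

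Of the tested trophoblast, primitive endoderm and mesoderm genes, most were higher in TCam-2, whereas neural genes were more often higher in NT2/D1. Of 27 tested trophoblast and primitive endoderm genes, 22 were over 2-fold higher in TCam-2 and 2 in NT2/D1 (median log2 fold change -4.33). Of the 35 listed, 8 did not pass the filter, and a gene could pass it through the line where it was higher. The median was -3.20 without the filter and -3.18 with a mean count of at least 100. SOX17, TFAP2C and TFAP2A of this list are also SEM markers. ERVW-1, the retroviral envelope syncytin-1 of the placenta, was at 0.11, 0.296, 0.311 and 0.104 CPM in NT2/D1 and 284, 269.8, 285 and 289 CPM in TCam-2. CGA, the common subunit of gonadotropins, had no count in NT2/D1 and was at 11.3 ± 3.89 CPM in TCam-2 (at least 295-fold), and VGLL1, a TEAD cofactor of trophoblast, was at 0 against 10.2 ± 0.506 CPM. Chosen after their values were seen, GCM1, CDX2 and HNF4A were also over 2-fold higher in TCam-2, but at 6.45 CPM or less. LAMA1 (72.7 ± 5.32 against 32.2 ± 1.23 CPM) and PDGFRA (7.82 ± 0.879 against 0.449 ± 0.105 CPM) of primitive endoderm were the 2 higher in NT2/D1. Of 28 listed mesoderm genes 20 passed the filter, again in part through the line where they were higher. Of these, 12 were over 2-fold higher in TCam-2 and 3 in NT2/D1. The median log2 fold change was -1.72, or -1.37 without the filter. PITX1, a hindlimb homeobox gene, was at 0.11, 0.178, 0.222 and 0.415 CPM in NT2/D1 and 104, 106, 96.7 and 94.1 CPM in TCam-2. GATA4, a factor of endoderm and heart, was at 0.426 ± 0.21 against 61.9 ± 2.32 CPM, and TBXT, known as Brachyury, at 0.0815 ± 0.0769 against 5.5 ± 0.29 CPM. KDR, the VEGF receptor, went the other way, at 26.7 ± 2.98 against 1.19 ± 0.447 CPM.

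HOX genes pattern the body axis and are held silent in pluripotent cells. Of 39 HOX genes 22 passed the filter, and 17 of these were over 2-fold higher in TCam-2 and 2 in NT2/D1 (median log2 fold change -6.48). Levels were low throughout. HOXA13 had no count in NT2/D1 and was at 7.58, 6.52, 7.23 and 5.57 CPM in TCam-2. HOXB7 was at 0 against 5.82 ± 1.16 CPM and HOXB13 at 0.0386 ± 0.052 against 5.19 ± 0.95 CPM. Since a gene passed the filter through the line where it was higher, the median of those that passed is larger than one over all 39 would be. The fitted values of genes at 0 in one line also depend on the prior count of the fit: with these genes at their lower bound the median was -5.35, without the filter it was -3.19, and with a mean count of at least 100 it was -2.54.

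Of 38 tested neural genes, 18 were over 2-fold higher in NT2/D1 and 8 in TCam-2 (median log2 fold change 1.06, or 2.42 with a mean count of at least 100). PTPRZ1 of this list is also in the primed list, and NCAM1 is also among the surface antigens. SOX21, a relative of SOX2, was at 27 ± 3.21 against 0.18 ± 0.145 CPM, and SIX6, an eye field factor, was at 5.97 ± 1.32 CPM in NT2/D1 with no count in TCam-2. OTX1 (0.0222 ± 0.0445 against 18.5 ± 2.18 CPM), ZIC1 (0.155 ± 0.0744 against 27.3 ± 1.56 CPM) and the Notch ligand DLL1 (4.17 ± 0.586 against 42.3 ± 3 CPM) were higher in TCam-2. OTX1 and OTX2, and ZIC1 and ZIC2, thus went in opposite directions within their families. Retinoic acid, which induces neurons in NT2/D1, acts through a set of binding proteins and receptors, and of 20 tested genes 8 were over 2-fold higher in NT2/D1 and 6 in TCam-2. The cytoplasmic binding proteins CRABP1, at 56.7, 48.2, 58.6 and 68.2 CPM in NT2/D1 and 0 in each TCam-2 library, and CRABP2, at 142 ± 12.2 against 15.2 ± 0.63 CPM, were higher in NT2/D1, as was the receptor RARG (30.8 ± 2.04 against 11.2 ± 2.24 CPM). NR2F2, an orphan receptor induced by retinoic acid, was at 1.76, 1.07, 2.14 and 1.81 CPM in NT2/D1 and 100.3, 92.5, 94.9 and 107 CPM in TCam-2, and the dehydrogenases DHRS3 (-2.04) and RDH10 (-1.96) were also higher in TCam-2.

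Among signalling genes, those of the FGF pathway were more often higher in NT2/D1. Of 26 tested, 12 were over 2-fold higher in NT2/D1 and 3 in TCam-2 (median log2 fold change 0.89). FGF19, an endocrine FGF, was at 63, 51.1, 59.97 and 63.4 CPM in NT2/D1 and 0, 0.152, 0 and 0 CPM in TCam-2, and DUSP6, the phosphatase induced by ERK as feedback, at 92 ± 10.7 against 3.46 ± 0.639 CPM. On the other side were FGF13, an intracellular FGF homologue (8.04 ± 1.1 against 146 ± 6.44 CPM), and the receptor FGFR4 (51.2 ± 10.4 against 144 ± 4.87 CPM). The Nodal and activin list gave 5 and 3 of 21, together 38.1% beside 35.7% of all genes. GDF3 and the antagonist FST (52.6 ± 1.96 against 7.41 ± 0.486 CPM) were higher in NT2/D1. The receptor ACVR1B (41.2 ± 2.81 against 122 ± 6.88 CPM) and the convertase FURIN (94.3 ± 15.2 against 278 ± 13.5 CPM) were higher in TCam-2. Of 27 BMP genes 2 were over 2-fold higher in NT2/D1, among them the antagonist GREM1 (20.5 ± 2.65 against 0.0449 ± 0.0303 CPM), and 6 in TCam-2. These included the BMP targets MSX2 (15.5 ± 1.245 against 108 ± 8.84 CPM) and ID1 (133 ± 25.9 against 355 ± 32.3 CPM) and the receptor BMPR1A (109 ± 4.81 against 234 ± 8.29 CPM). BMP is the signal that induces PGCs in mouse embryos.

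Of 40 Wnt genes, 14 were over 2-fold higher in NT2/D1 and 11 in TCam-2. SFRP1, an antagonist like SFRP2, was at 216 ± 2.29 against 24.6 ± 1.85 CPM. The noncanonical ligand WNT5A was at 36.2 ± 4.48 against 4.39 ± 0.825 CPM, and the receptor FZD2 at 59.1 ± 16.2 against 6.2 ± 1.22 CPM. The ligand WNT6 was at 15.6, 17.9, 18 and 15.2 CPM in TCam-2 with no count in the control NT2/D1 libraries, and NKD2, a Wnt feedback inhibitor, was at 5.15 ± 1.37 against 36.5 ± 3.13 CPM. Of 40 receptor tyrosine kinases and their ligands, 15 were over 2-fold higher in NT2/D1 and 10 in TCam-2. KITLG, the ligand of KIT, was at 16, 19.4, 18.5 and 13.7 CPM in NT2/D1 and 0.0574, 0.253, 0.168 and 0.265 CPM in TCam-2, so the ligand was higher in the EC line and its receptor higher in the SEM line. ROR1, a WNT5A receptor, was at 92.2 ± 3.13 against 4.53 ± 1.17 CPM, and MERTK, which engulfs dying cells, at 10.2 ± 1.79 against 132 ± 6.64 CPM.

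The machinery of DNA methylation differed in its parts. Of 24 tested genes, 5 were over 2-fold higher in NT2/D1 and 7 in TCam-2. DNMT3B was the writer in excess in NT2/D1 and UHRF1, which guides maintenance methylation, followed at 85.9 ± 6.62 against 32.4 ± 4.07 CPM. In TCam-2, beside DNMT3L, the dioxygenases TET1 (50.9, 56.9, 53 and 44.3 CPM in NT2/D1 and 189, 141, 156 and 166 CPM in TCam-2) and TET2 (7.26 ± 0.506 against 52.1 ± 5.26 CPM), which begin the removal of methylation, were higher, and the KRAB corepressor TRIM28 was at 338 ± 42.8 against 1468 ± 65.6 CPM. Polycomb genes, of which 36 were tested, counted 4 over 2-fold higher in NT2/D1, with EZH2, the H3K27 methyltransferase (122 ± 1 against 29.97 ± 1.98 CPM), and PHC1 on 12p (779.5 ± 64.3 against 251 ± 14.7 CPM). In TCam-2 there were 8, with BMI1 (12.8 ± 2.07 against 36.7 ± 2.01 CPM). Together these were 33.3% of the Polycomb list, beside 35.7% of all genes. Methylation itself was not measured.

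Germ cell genes were divided as well. Of 29 tested genes of the piRNA pathway and germ cells, 8 were over 2-fold higher in NT2/D1 and 13 in TCam-2 with a median log2 fold change of -1.05. The median depended on the setting: it was -0.08 without the filter on low counts, -0.20 in 1 fit of all 16 libraries, -0.58 without NT2/D1 replicate 2, -0.67 without TCam-2 replicate 1 and -0.64 without TCam-2 replicate 4. PIWIL2, a PIWI protein, was at 80.5, 73.8, 79.4 and 75.8 CPM in NT2/D1 and 0.344, 0.253, 0.504 and 0.265 CPM in TCam-2, and TEX15, which silences transposons with it, at 19.2 ± 5.23 against 0.141 ± 0.0708 CPM. TDRD9, a helicase of the same pathway, had no count in NT2/D1 and was at 21.5, 18.3, 20.1 and 20.9 CPM in TCam-2. RNF17 was at 0.037 ± 0.0491 against 18 ± 2.84 CPM, and the synaptonemal protein SYCP2 at 0.722 ± 0.152 against 35 ± 0.46 CPM. The parts of one pathway were therefore high in different lines. Of 64 X-linked cancer-testis antigens only 8 passed the filter, with 2 over 2-fold higher in NT2/D1 and 4 in TCam-2. XAGE2 (0.013 ± 0.0259 against 67.6 ± 6.39 CPM) was the one above 5 CPM. Of 41 tested imprinted genes, 10 were over 2-fold higher in NT2/D1 and 5 in TCam-2, together 36.6%, near the 35.7% of all genes. H19 was at 5.28, 5.15, 4.98 and 6.06 CPM in NT2/D1 and 81.9, 113, 96.2 and 95.9 CPM in TCam-2. PEG10 (597 ± 63.6 against 81.3 ± 2.01 CPM), SNRPN (48.9 ± 7.19 against 3.11 ± 0.309 CPM) and MAGEL2 (5.76 ± 0.901 against 0.28 ± 0.194 CPM) were higher in NT2/D1. TFPI2 was higher there too, at 10.3 ± 2.37 against 0.296 ± 0.102 CPM. MKRN3, a neighbour of MAGEL2, went the other way, at 0.0148 ± 0.0296 against 7.01 ± 0.445 CPM. Which parental allele was read was not tested.

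Metabolic genes were over 2-fold apart in smaller shares than identity genes. Of 27 glycolysis genes, 2 were over 2-fold higher in NT2/D1 and 4 in TCam-2, a smaller share than the 35.7% of all genes. They split by isoform: lactate dehydrogenase LDHA was at 136 ± 9.75 against 531 ± 35 CPM and LDHB at 301 ± 47.6 against 110.0 ± 30.1 CPM. The lactate transporter SLC16A3 was at 5.43 ± 1.21 against 143 ± 15.1 CPM and SLC16A1 at 619 ± 41.9 against 214 ± 2.77 CPM. Of 28 cholesterol genes 4 were over 2-fold higher in NT2/D1 and none in TCam-2, with ACAT2 (149 ± 3.5 against 5.87 ± 0.653 CPM) among them. Of 34 serine, one-carbon and ATF4 genes, 3 and 5 were over 2-fold higher. PHGDH (894 ± 108 against 377 ± 15.4 CPM) and PSAT1 (525 ± 23.7 against 183 ± 3.4 CPM), enzymes of serine synthesis, were higher in NT2/D1. Cystathionine synthase CBS (0.788 ± 0.586 against 65.6 ± 2.18 CPM) and the stress pseudokinase TRIB3 (38.3 ± 8.51 against 348 ± 6.72 CPM) were higher in TCam-2. The media differ in their amino acids, and the part of the media was not tested.

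Most of the called mitochondrial genes of the 2 genomes lay on opposite sides, with few over 2-fold. Mitochondrial transcripts took 4.72%, 5.46%, 5.3% and 4.93% of the counts in the NT2/D1 libraries and 4.01%, 3.8%, 3.65% and 3.63% in those of TCam-2. This was a difference of 1.33 percentage points (two-sided exact permutation test, p = 0.0286, the smallest that 4 against 4 libraries allow). Of the 13 proteins encoded in the mitochondrial genome, 9 were called higher in NT2/D1 and none in TCam-2. None of them was over 2-fold, or 1 without NT2/D1 replicate 1 or 4. MT-CYB, a subunit of complex III, was at 2259.9 ± 147 against 1056 ± 40.9 CPM. Of 79 oxidative phosphorylation genes of the nucleus, 15 were called higher in NT2/D1 and 45 in TCam-2. Over all genes 79.2% were called in either direction. The median log2 fold change of the nuclear list was -0.27, or -0.12 with the medians of length and GC bins subtracted. Over 2-fold were 0 and 9 of the list, 11.4% beside 35.7% of all genes. ATP5F1E (46 ± 4.9 against 299.8 ± 43.5 CPM), UQCRB (112 ± 11.5 against 516 ± 90.5 CPM) and COX6C (98.9 ± 14.7 against 385 ± 56.9 CPM) were among those higher in TCam-2.

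Of 83 ribosomal protein genes, 6 were called higher in NT2/D1 and 68 higher in TCam-2, with a median log2 fold change of -0.72, and 2 and 16 were over 2-fold. RPL11 was at 322 ± 17.1 against 1277 ± 191 CPM, RPL30 at 215 ± 25 against 1074 ± 169.5 CPM, and RPL8 at 1332 ± 196 against 4635 ± 547 CPM. RPL22L1, a paralogue of RPL22, went the other way, at 198 ± 20.5 against 29.7 ± 2.43 CPM. Ribosomal protein genes have many processed pseudogenes, so their counts depend on how multiply mapped reads were treated. They are also short: the median transcript was 1909 bases against 3463 bases for all tested genes, and over protein-coding genes the median log2 fold change went from -0.32 in the fifth with the shortest transcripts to 0.25 in the fifth with the longest. With the medians of length and GC bins subtracted, the ribosomal median was -0.65 and that of the nuclear oxidative phosphorylation genes -0.12, so the latter lost more of its size.

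Cell cycle and DNA repair genes were mostly alike at this scale. Over 2-fold differences were found for 8 of 54 genes of G2 and mitosis, 5 of 54 of DNA replication, 6 of 44 of homologous recombination and the Fanconi pathway, and 0 of 26 of nucleotide excision and mismatch repair, all smaller shares than the background of 35.7%. The last count was 1 without NT2/D1 replicate 2 or TCam-2 replicate 3. At an adjusted p under 0.05, 25 mitosis genes were called higher in NT2/D1 and 18 in TCam-2. The same counts were 26 and 15 for replication and 22 and 15 for recombination and the Fanconi pathway. For excision and mismatch repair 9 genes were called in each direction. Over all genes 79.2% were called in either direction. Of 28 genes of the G1 phase, 5 were over 2-fold higher in each line, together 35.7% and so the same share as the background. Cyclin D1 (CCND1) was at 596, 549.7, 584 and 606 CPM in NT2/D1 and 38.5, 33.7, 34.7 and 35.6 CPM in TCam-2, and its kinase CDK6 at 63.6 ± 7.3 against 4.52 ± 0.373 CPM. MYBL2, a mitotic transcription factor, was at 301 ± 30.2 against 1499 ± 58.8 CPM, and the repair gene NBN at 16.2 ± 1.89 against 68.5 ± 2.2 CPM. Of 49 p53 target and apoptosis genes, 9 were over 2-fold higher in NT2/D1, including the death receptors TNFRSF10A (26.2 ± 2.93 against 3.19 ± 0.993 CPM) and FAS (5.5 ± 0.735 against 0.574 ± 0.196 CPM). In TCam-2 there were 11, including CASP10 (0.753 ± 0.162 against 25.7 ± 1.8 CPM) and CFLAR, which blocks caspase 8 (28 ± 1.85 against 163 ± 7.9 CPM). Together these were 40.8% of the list, beside 35.7% of all genes. PHLDA3, an AKT inhibitor induced by p53, was at 111 ± 24.6 against 1065 ± 146 CPM.

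Antioxidant genes differed by isoform. Of 51 tested genes of glutathione, NRF2 and cisplatin transport, 12 were over 2-fold higher in NT2/D1 and 10 in TCam-2. The glutathione peroxidase GPX1 was at 288, 194, 242 and 313 CPM in NT2/D1 and 1.49, 2.33, 1.85 and 3.32 CPM in TCam-2, whereas GPX2, the epithelial form, was at 0.935, 0.592, 0.623 and 0.518 CPM in NT2/D1 and 109, 115, 129 and 119 CPM in TCam-2. Each line thus had one of the forms and little of the other. MGST1, a membrane-bound transferase, was at 567 ± 26.7 against 11.4 ± 1.97 CPM. LRRC8A, a subunit of the anion channel through which cisplatin enters, was at 302 ± 39.2 against 44.5 ± 2.04 CPM, and the efflux pump ABCC2 at 2.23 ± 0.492 against 52.8 ± 3.29 CPM. Sensitivity to drugs was not measured in these libraries.

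The difference between the lines varied by chromosome. Over 14341 protein-coding genes the medians of single chromosomes ran from -0.81 on chromosome 8 (499 genes) to 0.58 on chromosome 7 (676 genes). Chromosomes 20 (-0.56), 10 (-0.41), 17 (-0.39) and 18 (-0.38) were also shifted toward TCam-2, and 13 (0.45), 9 (0.43) and X (0.34) toward NT2/D1. The 8 mimic libraries, which share no sample with the controls, gave -0.71 for chromosome 8 and 0.44 for chromosome 7. In these libraries chromosomes 20 (-0.23) and 9 (0.19) lay nearer to 0 than in the controls, and chromosomes 10 (-0.30), 17 (-0.29), 18 (-0.34), 13 (0.34) and X (0.38) kept their sign. Chromosome 21 went from 0.20 in the controls to 0.79. With the medians of length and GC bins subtracted, the control median was -0.84 on chromosome 8, 0.58 on chromosome 7 and 0.29 on chromosome 13. RPL30, RPL8, UQCRB, COX6C and NBN, named above among the genes higher in TCam-2, lie on chromosome 8. DNA copy number was not measured, and the part of copy number was not tested.

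EC and SEM commonly carry extra copies of 12p, often as an isochromosome. This arm's 207 protein-coding genes had a median log2 fold change of 0.81, with 141 called higher in NT2/D1 and 45 in TCam-2, against -0.03 for the 573 genes of the rest of chromosome 12. The shift was thus on the short arm, and the mimic libraries gave 0.68. The genes of 12p that the study names did not all follow it: of 28, 4 were over 2-fold higher in NT2/D1 and 8 in TCam-2. BCAT1, an aminotransferase of branched-chain amino acids, was at 1096, 1363, 1244 and 1117 CPM in NT2/D1 and 48.8, 48.9, 46.9 and 49.8 CPM in TCam-2, and SINHCAF, a subunit of the SIN3 complex, at 780.4 ± 58.7 against 310.3 ± 14.8 CPM. GPRC5A, an orphan receptor of epithelia, was at 2.2, 1.48, 1.91 and 2.12 CPM in NT2/D1 and 425, 376, 411 and 409.7 CPM in TCam-2. PLBD1, a phospholipase, was at 29.3 ± 1.48 against 432 ± 8.15 CPM, PTPN6, the phosphatase SHP-1, at 7.02 ± 1.04 against 56 ± 4.02 CPM, and CD9, a tetraspanin, at 249.6 ± 15.7 against 738 ± 39.4 CPM. GAPDH (0.96), SLC2A3 (0.44) and RAD51AP1 (0.81) were called higher in NT2/D1 by less than 2-fold, ENO2 (-0.99) and CCND2 (-0.17) higher in TCam-2 by less than 2-fold, the latter no longer called without NT2/D1 replicate 1, 3 or 4, and TPI1 (0.04), PHB2 (0.05), TNFRSF1A (0.06), YARS2 (-0.12) and DDX47 (0.32) were not called. TEAD4, the partner of YAP (-1.39), SPSB2 (-2.63), which overlaps TPI1 on the other strand, and ARHGDIB (-1.62) were over 2-fold higher in TCam-2, while WBP11 (1.02), EMG1 (0.40) and C12orf57 (0.36) were called higher in NT2/D1 and the pseudogene POU5F1P3 (-0.85) higher in TCam-2, none of the 4 past the over 2-fold rule and POU5F1P3 no longer called without TCam-2 replicate 3 or without NT2/D1 replicates 2 and 3. NANOG, on the same arm, was higher in TCam-2, as given above.

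**Figure D4:**
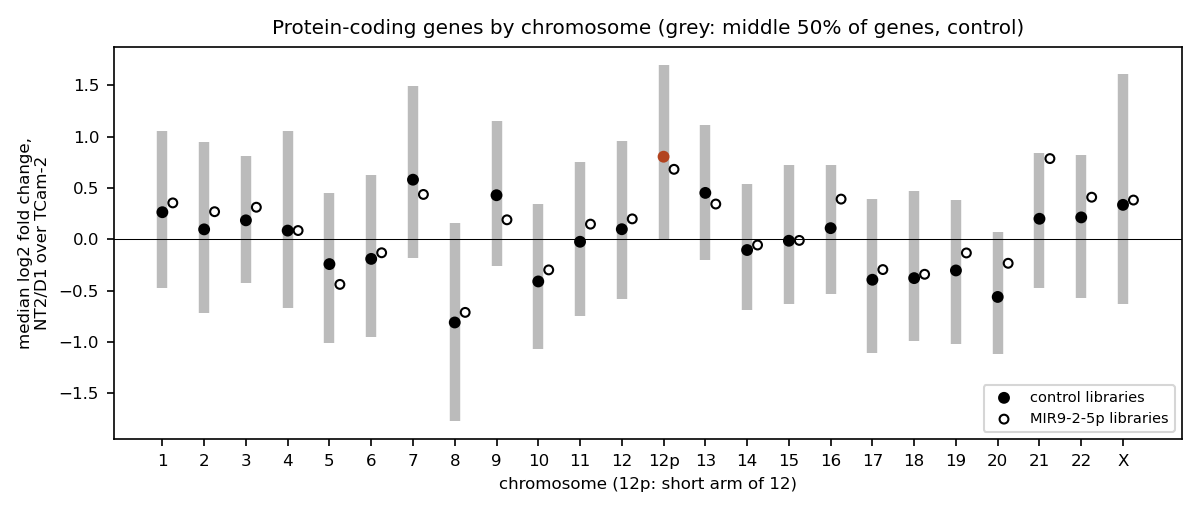
Median log2 fold change of protein-coding genes by chromosome, NT2/D1 over TCam-2, with filled points for the control libraries, open points for the MIR9-2-5p libraries and grey bars for the middle 50% of genes in the controls; 12p is also part of 12. Chromosome 8 lay lowest at -0.81 and 12p highest at 0.81 in the controls, and both kept their sign in the mimic libraries.

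A stretch of chromosome 22 near the centromere had almost no counts in TCam-2. It was found by a rule set after the data were seen, of at least 3 neighbouring tested protein-coding genes, each with at most 8 counts in all 8 libraries of one line and at least 5 CPM in the other, and it was the only such stretch in either line. Between 17084954 and 17558151 (GRCh38, GENCODE release 44) it held IL17RA, the receptor of interleukin 17, at 19.1 ± 2.82 CPM in NT2/D1, TMEM121B at 7.73 ± 0.988 CPM, HDHD5 at 86 ± 8.39 CPM, ADA2, an adenosine deaminase, at 44.6 ± 1.64 CPM, and CECR2 at 91.4 ± 4.96 CPM. In the 8 TCam-2 libraries together the 16 annotated genes of the stretch had 2 counts, both in CECR2, against 32875 counts in the 8 NT2/D1 libraries. On the telomeric side the next gene, SLC25A18, was at 4.19 ± 0.417 against 10.7 ± 0.849 CPM, and ATP6V1E1, a subunit of the proton pump, at 86 ± 3.88 against 206 ± 12.7 CPM, so that counts returned within 1 gene. On the centromeric side the pseudogene CECR7 had 1 count in TCam-2 and was at 8.79 ± 1.72 CPM in NT2/D1. Whether the DNA is absent was not tested.

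**Figure D5:**
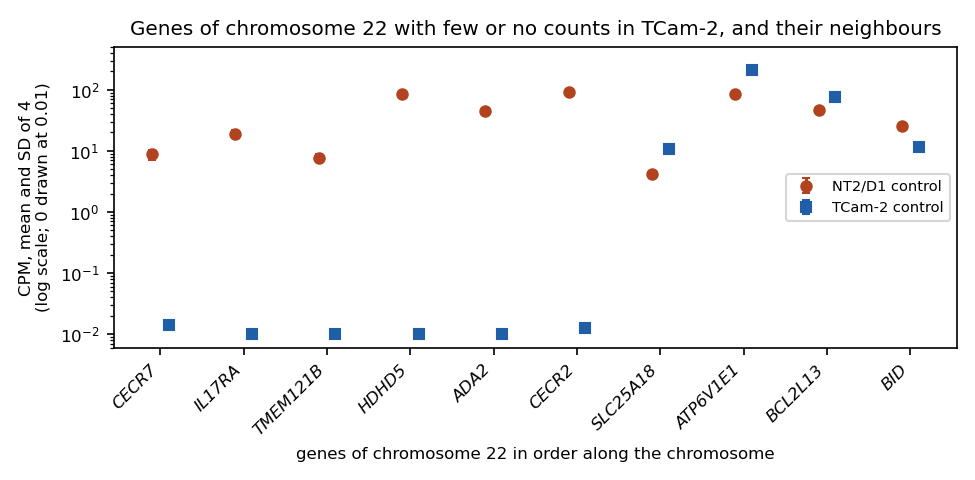
Mean CPM with SD of 4 control libraries, on a log axis with 0 drawn at 0.01, for 10 genes of chromosome 22 in their order along it, circles for NT2/D1 and squares for TCam-2. From CECR7 to CECR2 TCam-2 lay at 0.014 CPM or less and NT2/D1 at 7.73 CPM or more, and from SLC25A18 on both lines had counts.

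The comparison of the 8 mimic libraries repeats the contrast of lines in other samples, in cells that also carry the effect of MIR9-2-5p. There 14784 of 18250 genes were called (81%). Of the 6333 genes over 2-fold apart in the controls, 5900 were tested in the mimic libraries: 5533 had the same sign (93.8%), 5287 of these were called, and 224 were called with the opposite sign. Of all genes called in the controls at either size, 13485 were tested in the mimic libraries and 11189 had the same sign (83%). Of the 32 EC and SEM markers over 2-fold apart in the controls, 30 were called with the same sign in the mimic libraries. The exceptions among these were FOXD3 (log2 fold change 0.28) and LEFTY2 (0.38), which kept their sign without being called. Of the markers called in the controls but not over 2-fold, ITGA6, KIT and CDK20 were called with the same sign. The sign was opposite and called for TDGF1 (0.24 to -2.14), PRDM14 (1.11 to -0.94), ALPP (1.26 to -0.78) and SPRY1 (0.39 to -0.60). The size of the line difference changed more often than its sign: an interaction of line and mimic was called for 10414 of 19576 genes (53.2%, edgeR over all 16 libraries). NANOG went from -1.21 in the controls to -3.83 and POU5F1 from -0.77 to -2.39, with interaction terms of 2.60 (SE 0.10) and 1.60 (SE 0.11).

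The genes with the largest control difference whose sign was opposite and called in the mimic libraries were OLR1, NR2F2, SLC16A3 and ADGRG1 on the TCam-2 side and HRK, CLGN, RTN4RL2 and XK on the NT2/D1 side. NR2F2 went from -5.83 in the controls to 0.28 with the mimic, SLC16A3 from -4.71 to 0.64, and OLR1, a scavenger receptor, from -6.78 to 0.40. HRK, a BH3-only activator of apoptosis, went from 3.2 to -0.37, and CLGN, a testis chaperone, from 3.13 to -0.67. For these genes the control values of this comparison do not hold for cells with the mimic.

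Markers of other cells the cultures could hold were checked last. Of 12 blood and endothelial markers, PTPRC and HBB had no count in either line and 4 passed the filter, among them the endothelial genes TEK (48.9 ± 4.42 against 0.995 ± 0.225 CPM) and CDH5 (0.843 ± 0.202 against 16.6 ± 1.35 CPM). The summed level of the 10 fibroblast markers was 509 to 600.0 CPM in NT2/D1 and 465 to 480.0 CPM in TCam-2, made up of different genes, as given for THY1, COL1A1 and COL1A2, and DCN and FAP were at 0.0781 CPM or less. Of 16 testis somatic markers 10 passed the filter, with AMH (77 ± 18 against 11.1 ± 1.07 CPM), STAR (9.66 ± 2.2 against 0.0699 ± 0.0505 CPM) and GATA4 called in opposite directions, and the receptors FSHR and LHCGR were at 0.136 CPM or less in both lines. The summed levels of the somatic list were 83.9 to 132 CPM in NT2/D1 and 96.0 to 101 CPM in TCam-2.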

How the data were processed

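Total RNA of 16 cell samples was sequenced after NEBNext Ultra library preparation. Trimming was by Trim Galore with cutadapt per the submitters' notes and by fastp per the study's methods, alignment to GRCh38 was by STAR and counting by featureCounts. Which annotation release and strand setting were used is not given in the sources used here. Raw counts per gene and library were deposited by the authors and used unchanged, and CPM was computed from them with TMM-scaled library sizes. GENCODE release 44 gave symbols and positions for 58207 of 58735 gene identifiers; 92 of the tested genes had none.

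Control NT2/D1 was compared with control TCam-2 in edgeR 4.0.16 (R 4.3.3): TMM factors, filterByExpr (count minimum 10, total minimum 15), a robust quasi-likelihood fit and Benjamini-Hochberg adjustment over all 17740 genes tested, with glmTreat for folds over 2. The labels call the replicates biological. Replicate numbers did not pair the libraries: the correlation of the deviations of same-numbered libraries was 0.00, -0.09, 0.01 and 0.02. Between replicates the counts differed by more than sampling noise (chi-square over degrees of freedom 1.91 to 16.3), so none was counted as a duplicate. On simulated counts for this comparison (17284 genes), 17, 41, 50 and 50 of 50 genes changed by 1.25-, 1.5-, 2- and 4-fold were called, with 8 false calls among 166. Only these genes were changed, in random directions and without trends by length or base composition. The simulation therefore cannot give the rate of false calls in data where 79.2% of genes were called.

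The gene lists, tests and members were chosen with earlier results of these data known. Named genes were: the tested EC and SEM markers; the 10 protein-coding and 5 lncRNA genes with the largest difference each way among those over 2-fold apart, without overlap and with a mean count of at least 500; up to 4 called members each way of every other list, at 5 CPM or more in one line; POU5F1, NANOG, LIN28A, LIN28B and the 12p genes named by the study; and the 4 largest each way, at 5 CPM or more, whose sign was opposite and called with the mimic. Other genes were chosen after their values were seen, and some genes that the rule names are not reported here. Of 278 named tested genes, 97 overlap a gene on the other strand, whose reads cannot be told apart without the strand setting. Counting intervals are exact and, like bounds, cover counting error only. DESeq2 1.42.0, other factors, filters, folds and sample sets were alternatives. Sequences came from RefSeq (GRCh38.p14).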

Additional observations from a re-analysis of the deposited data

Results flagged for a closer look

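In groups of 4 libraries, 1 library stood apart from the other 3 where its gap to the nearest, divided by the range of the group, exceeded Dixon's critical value of 0.829. Among the named genes with a mean of at least 1 CPM, 21 of 464 groups were past it, and chance alone gives about 1 in 20. In control NT2/D1 this was so for BEX1 in replicate 1 (109.5 CPM against 131 to 136, ratio 0.829), CLDN7 in replicate 1 (2.15 CPM against 0.57 to 0.712, ratio 0.91) and FST in replicate 3 (55.5 CPM against 51.4 to 51.7, ratio 0.926). It held as well for IGFBP3 in replicate 1 (22.2 CPM against 18.4 to 18.7, ratio 0.937), LEFTY2 in replicate 2 (2.31 CPM against 1.98 to 2.02, ratio 0.878) and LINC01356 in replicate 4 (22.2 CPM against 19.97 to 20.3, ratio 0.838). The same was seen for MIAT in replicate 4 (46.5 CPM against 56.7 to 57.9, ratio 0.89), NANOG in replicate 1 (224 CPM against 246 to 248, ratio 0.917) and RDH10 in replicate 3 (7.52 CPM against 8.97 to 9.06, ratio 0.94). Further cases were RPL22L1 in replicate 1 (167 CPM against 205 to 211, ratio 0.851) and ZEB2 in replicate 3 (24.9 CPM against 27.6 to 28, ratio 0.873). In control TCam-2 this was so for CLGN in replicate 3 (2.41 CPM against 1.92 to 1.95, ratio 0.938), COL1A2 in replicate 3 (395 CPM against 377 to 380.2, ratio 0.831) and CSF3R in replicate 1 (47.3 CPM against 50.05 to 50.5, ratio 0.859). It held as well for ELF3 in replicate 3 (28 CPM against 24.1 to 24.6, ratio 0.867), EZH2 in replicate 1 (27 CPM against 30.6 to 31.3, ratio 0.842) and GDF3 in replicate 1 (23.4 CPM against 21.3 to 21.6, ratio 0.87). The same was seen for LDHB in replicate 1 (155 CPM against 91.4 to 101, ratio 0.843), PEG10 in replicate 2 (84.3 CPM against 80.3 to 80.4, ratio 0.964) and SLC2A3 in replicate 1 (1137 CPM against 1225 to 1242, ratio 0.845). A further case was THY1 in replicate 1 (5.97 CPM against 3.84 to 4.15, ratio 0.856). None of these libraries brought the groups of the 2 lines into overlap.

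The difference between the lines was itself different with MIR9-2-5p for 10414 genes, by the interaction of line and mimic over 16 libraries (edgeR). Interaction terms, as the control difference minus the difference with the mimic (log2), are given for the 8 genes named by the rule on opposite sign. They were OLR1 -7.20, NR2F2 -6.14, SLC16A3 -5.38 and ADGRG1 -5.05 on the TCam-2 side, and CLGN 3.79, RTN4RL2 3.67, HRK 3.55 and XK 3.33 on the NT2/D1 side. Their adjusted p ranged from 8.91e-20 for NR2F2 to 9.76e-10 for RTN4RL2. These genes were chosen for the turn of sign, so the values are a description.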

How the results depend on the processing

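The count of genes differing between the control lines (14045) stayed between 9683, with a mean count of at least 100, and 17083, without a filter, under every alternative run, DESeq2 included (15994, or 15512 without its independent filtering). Upper-quartile factors moved the median of all genes by 0.06 (log2) and gave 14075 calls, 7422 of them higher in NT2/D1. The over 2-fold count (6333) fell to 3448 with a mean count of at least 100, where fewer genes were tested, and to 3088 with a fold of 4 in place of 2. Leaving out 1 replicate in turn gave 13789 to 14342 genes at the first rule and 6315 to 6674 at the second. With the replicate block, although the numbers did not pair the libraries, 13658 and 6223 genes were called, and the interaction count was 10347 in place of 10414. Alternatives chosen after seeing the data, without NT2/D1 replicates 1 and 4 or without 2 and 3, gave 6749 and 6432 genes over 2-fold, of which 5967 and 5872 were among the 6333. Of 4951 values of 278 named genes, none reversed, 10 lost their call (CCND2 in 7, POU5F1P3 in 2, LIN28B in 1, without NT2/D1 replicates 1 and 4) and 6 gained one (DDX47, PHB2, TNFRSF1A and YARS2). Without NT2/D1 replicate 4 the median of the retinoic acid list went from 0.71 to -0.00. The median of that list was 0.02 without the filter and -0.45 with a mean count of at least 100. Under some scalings and without some replicates 1 of the 13 mitochondrially encoded genes was over 2-fold higher, in place of none. Depth limits statements on genes under about 1 CPM, which were few counts in each library, and nothing here separates line from medium or from the base composition split of the NT2/D1 replicates.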

Other observations

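Over 2-fold differences of immune and lipid genes were split between the lines, as were those of all genes (18.7% and 17%). Of 23 tested genes of HLA class I and antigen loading, 7 were over 2-fold higher in NT2/D1 and 5 in TCam-2. B2M, the light chain of class I, was at 82.8, 108, 104 and 103 CPM in NT2/D1 and 5.39, 8.24, 7.34 and 6.37 CPM in TCam-2, whereas the non-classical HLA-E was at 38.5 ± 2.7 against 86.3 ± 3.5 CPM and the loading chaperone PDIA3 at 349 ± 31.1 against 832 ± 46.2 CPM. HLA genes are near copies of each other, so reads may be divided among them. Of 43 interferon response and RNA sensing genes, 9 and 8 were over 2-fold higher, together 39.5% beside 35.7% of all genes. TRIM22, an antiviral ubiquitin ligase, was at 99.6 ± 7.21 against 2.28 ± 0.579 CPM, and the sensor IFI16 at 13.8 ± 1.11 against 83.7 ± 3.51 CPM. Of 26 arachidonic acid and prostaglandin genes, 6 were over 2-fold higher in each line. HPGD, which inactivates prostaglandins, was at 0.44, 0.711, 0.801 and 0.207 CPM in NT2/D1 and 160.1, 164, 162 and 166 CPM in TCam-2, and MGLL, which releases arachidonic acid from monoacylglycerol, at 1.89 ± 0.327 against 177 ± 3.66 CPM, while the prostacyclin synthase PTGIS was at 45.9 ± 4.22 against 1.17 ± 0.618 CPM. Of 23 genes of microRNA processing, 4 were over 2-fold higher in NT2/D1 and 1 in TCam-2, with TNRC6A (1.54) and TNRC6C (-1.74), both partners of Argonaute, in opposite directions. Of 26 clustered histone genes 4 and 3 were over 2-fold higher, and the linker histone H1-2 was at 4.45 ± 0.666 against 63.6 ± 10.1 CPM; their RNAs end without a poly(A) tail, and how RNA was selected can change their counts.

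Chosen after the data were seen, genes present in one line and nearly without counts in the other were listed. There were 54 genes with at least 10 CPM in control NT2/D1 and at most 8 counts over all 8 TCam-2 libraries, of which 11 had none, and 32 in the other direction, of which 8 had none. Beside those in the report, the former included BEX1, an adaptor protein of neural cells (128 ± 12.4 CPM in NT2/D1), and the vesicle protein SYT11 (52.9 ± 1.39 CPM). The latter included the sialyltransferase ST6GALNAC1 (52.6 ± 4.19 CPM in TCam-2), the receptor CSF3R (49.5 ± 1.49 CPM), GSTA2 (47.4 ± 3.98 CPM), a near copy of GSTA3, and ZNF707 (33 ± 3.12 CPM). In the cluster of KRAB zinc finger genes on chromosome 19 between 19668796 and 24129968, 36 genes were tested, of which 32 were called higher in NT2/D1 and 1 in TCam-2, with 15 and 0 over 2-fold and a median log2 fold change of 0.87. In TCam-2, 7 of them had at most 8 counts over 8 libraries (ZNF90, ZNF486, ZNF66, ZNF208, ZNF676, ZNF729 and ZNF728), and the others were at 2.62 to 49.9 CPM. ZNF208 was at 78 ± 16.6 CPM in NT2/D1, ZNF729 at 42.1 ± 11.8 CPM and ZNF486 at 28.8 ± 2.9 CPM. These genes are near copies of each other, and how reads were divided among them was not tested.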
